A study of Mus musculus with 9 samples.

Results

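The genes described here encode machinery of regulated exocytosis, the step at which a hormone granule fuses with the cell surface and releases its contents. They are 9 genes in 3 roles: the synaptotagmins Syt4, Syt7 and Syt13, the SNARE genes Stx1a, Snap25 and Vamp2, and Rab3a, Sytl4 and Cadps, which act on granules before fusion. Every probe of the array whose platform symbol was one of these 9 was taken, which gave 12 probes of 24613, or 9 genes of 15967. Syt7 had 3 probes, Snap25 had 2, and each other gene had 1. A probe was tested where every array of some group read it above background. Of the 12 probes 8 passed, and they stood for 8 genes. No Syt7 probe passed, and 1 of the Snap25 probes did not.

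The values come from Illumina mouse bead arrays with 3 groups of 3 arrays, all from adult mouse pancreas. Induced cells came from rag-/- mice, which lack mature T and B lymphocytes, and were GFP+ cells sorted 1 month after infection with an adenovirus called M3. About 5000 cells were used per sample, and by the labels 22% of the sorted cells made insulin, so most of the RNA may come from cells without it. Each islet sample consisted of 4 to 5 hand-picked islets of pdx-gfp transgenic mice, and so held all islet cell types. Non-islet samples were about 10000 pancreatic cells left once islets had been taken from mice written as pdxa-gfp. The labels do not say what M3 carries; as background, the name has been used for a set of pancreatic transcription factor genes delivered together. The induced samples thus differ from both other groups in mouse line, in virus and in sorting, and these cannot be told apart. The labels speak of independent repeats without tying them to animals, so that p-values here reflect only how far these samples spread, which may be technical.

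In endocrine cells and neurons, granules are carried to the plasma membrane by Rab GTPases and their effectors, are made ready for fusion by priming factors, and fuse when a SNARE on the granule (Vamp2) zips together with SNAREs on the plasma membrane (Stx1a and Snap25). Synaptotagmins sit on the granule, and several of them are the calcium sensors that couple a rise in calcium to fusion. In beta cells this chain is what links glucose-driven calcium entry to insulin release.

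The promoter table of RefSeq (GRCm38.p6) held 4 of the 9 genes. The 240 bases upstream of the gene are shown for 3 of them, of which Stx1a was higher in induced cells than in islets and Rab3a and Sytl4 were lower. The table's window for Cadps and a further one for Rab3a lay within the gene, with no stretch upstream of it to print. Capitals mark a GC box, GGGCGG on either strand. All are written 5′ to 3′ on the strand of the gene.
Stx1a, chr5:135023242-135023481, plus strand: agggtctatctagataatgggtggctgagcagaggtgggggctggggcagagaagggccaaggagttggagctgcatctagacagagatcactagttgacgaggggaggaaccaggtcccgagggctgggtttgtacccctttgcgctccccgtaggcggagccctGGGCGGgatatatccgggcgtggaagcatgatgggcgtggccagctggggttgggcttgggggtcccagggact
Rab3a, chr8:70754463-70754702, plus strand: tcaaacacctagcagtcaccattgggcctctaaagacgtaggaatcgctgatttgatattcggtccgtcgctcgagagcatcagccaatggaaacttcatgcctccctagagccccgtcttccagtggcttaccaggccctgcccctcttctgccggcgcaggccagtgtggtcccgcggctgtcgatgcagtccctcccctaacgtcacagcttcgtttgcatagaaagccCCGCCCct
Sytl4, chrX:133981822-133982061, minus strand: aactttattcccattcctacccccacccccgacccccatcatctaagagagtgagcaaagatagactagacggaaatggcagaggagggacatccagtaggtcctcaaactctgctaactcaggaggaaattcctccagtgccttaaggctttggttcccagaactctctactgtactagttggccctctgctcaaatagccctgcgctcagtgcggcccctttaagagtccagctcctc
The stretches of Stx1a and Rab3a held 1 GC box each and that of Sytl4 held 0, beside 26.9% of 20654 upstream stretches of the same length. An E box, CANNTG, was found once in Stx1a and in neither other gene (66.8% of all stretches). The letters TGACG, one side of a cAMP response element, occurred once in Stx1a and once in Rab3a (15.9%). Neither TTCAGCACC nor GGACAGC, taken from the left and right sides of the RE1 element, occurred in any of the 3 (0.276% and 4.73%). Both strands were searched and no matches overlapped. These matches describe the letters of the windows and nothing about binding.

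Background-corrected intensities were quantile-normalized, and this value is called the signal. Log2 differences are on the scale of log2(signal + 11.9), which understates changes of dim probes, and signals of different probes are not compared. All adjusted p-values are from limma's moderated test with Benjamini-Hochberg adjustment over all 13927 kept probes, and a gene is called at an adjusted p under 0.05.

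Induced cells differed from islets in opposite ways within this machinery. Stx1a was 5.20-fold higher in induced cells, while Syt4 was 15.4-fold, Rab3a 4.49-fold and Sytl4 2.28-fold lower. Syt13 and Cadps were lower by less (1.37-fold and 1.40-fold), and Snap25 and Vamp2 were not called. In a bulk sample, fewer cells of a type and less RNA per cell cannot be told apart. In all 1 of the 8 tested probes was higher and 5 were lower, with a median log2 difference of -0.47. Over all kept probes 48.6% were called in this comparison, 22.5% higher and 26.1% lower, with a median of -0.04. With so many calls on the array, the share of members called is not a result about them.

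**Figure D1:**
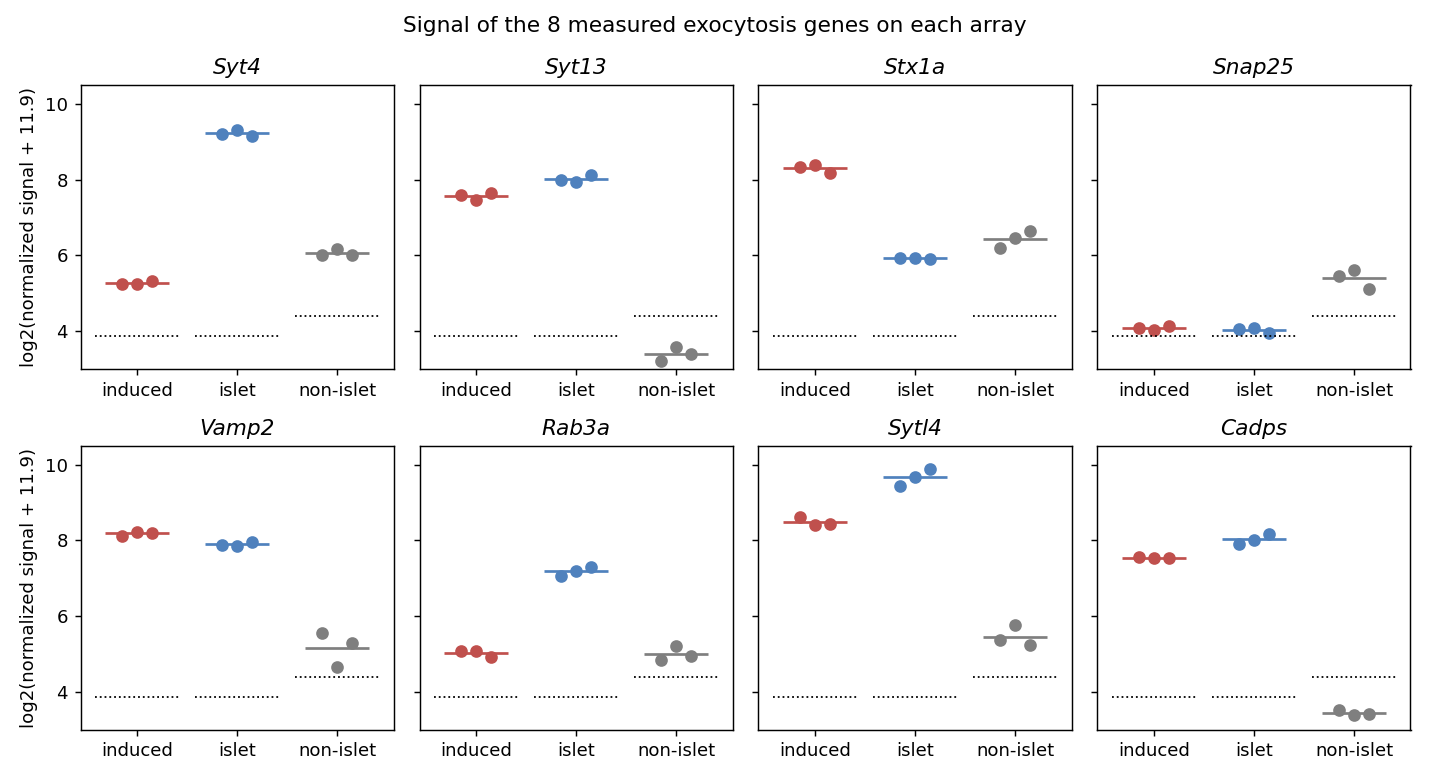
Signal of each tested exocytosis gene on the 9 arrays, as log2(normalized signal + 11.9). Points are arrays, solid lines are group means of 3 arrays, and dotted lines are the mean of the lowest signal above background in a group. Syt4 and Rab3a are high in islets alone, Stx1a is highest in induced cells, and Syt13 and Cadps lie below the dotted line in non-islet cells.

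Among the synaptotagmins, Syt4 differed more between induced cells and islets than Syt13. Syt4 is an atypical synaptotagmin of dense-core granules, whose first calcium-binding domain lacks a residue that others use to bind calcium. Its signal was 26.2, 25.9 and 28.1 on the induced arrays, 576, 621 and 561 on the islet arrays, and 52.7, 59.3 and 52.2 on the non-islet arrays. The 3 groups did not overlap, and the induced arrays were the lowest. The log2 difference of Syt4 between induced cells and islets was -3.95 (SE 0.088, n = 3 per group, adjusted p = 9.2e-11 by limma). Islets exceeded non-islet cells by 3.17 for Syt4 (adjusted p = 1.04e-10 by limma). Against non-islet cells Syt4 was lower in induced cells by the main scaling (-0.78, adjusted p = 8.36e-06 by limma), but this direction rests on the scaling. It was 0.04 in the values as deposited (adjusted p = 0.47) and 0.99 when every array was scaled to the same noise (adjusted p = 3.05e-09).

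Syt13, another synaptotagmin without the usual calcium-binding residues, followed another course. Its signal was 180, 165 and 190 in induced cells and 244, 231 and 269 in islets. In non-islet cells it was above background on 0 of 3 arrays. Every induced array thus lay below every islet array, by a small margin next to the gap that separates both from non-islet cells. The log2 difference of Syt13 between induced cells and islets was -0.45 (SE 0.11, adjusted p = 0.00643 by limma), and it was -0.05 and no longer called at equal noise (adjusted p = 0.695). Against the background limit of non-islet cells, Syt13 was at least 9.03-fold higher in induced cells and at least 12.3-fold higher in islets. Its higher calls against non-islet cells followed from the filter, so only bounds are given. Each such bound is the mean log2 signal of the bright group against the lowest signal above background on the non-islet arrays.

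Syt7, a high-affinity calcium sensor with a part in insulin secretion, could not be measured. Its probe ILMN_2771851 was above background on 1 of 3 induced, 2 of 3 islet and 1 of 3 non-islet arrays. Probes ILMN_2740949 and ILMN_2662581, annotated to other RefSeq transcripts of Syt7, were above background on 0 arrays. The deposited intensity of ILMN_2771851 was 2.44, 3.55 and 5.77 in islets and 2.00, 4.11 and 1.75 in induced cells, against background limits of 2.43 to 3.37 on those arrays. No level or difference of Syt7 follows from these arrays. Its absence from the calls carries no information on the gene.

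**Figure D2:**
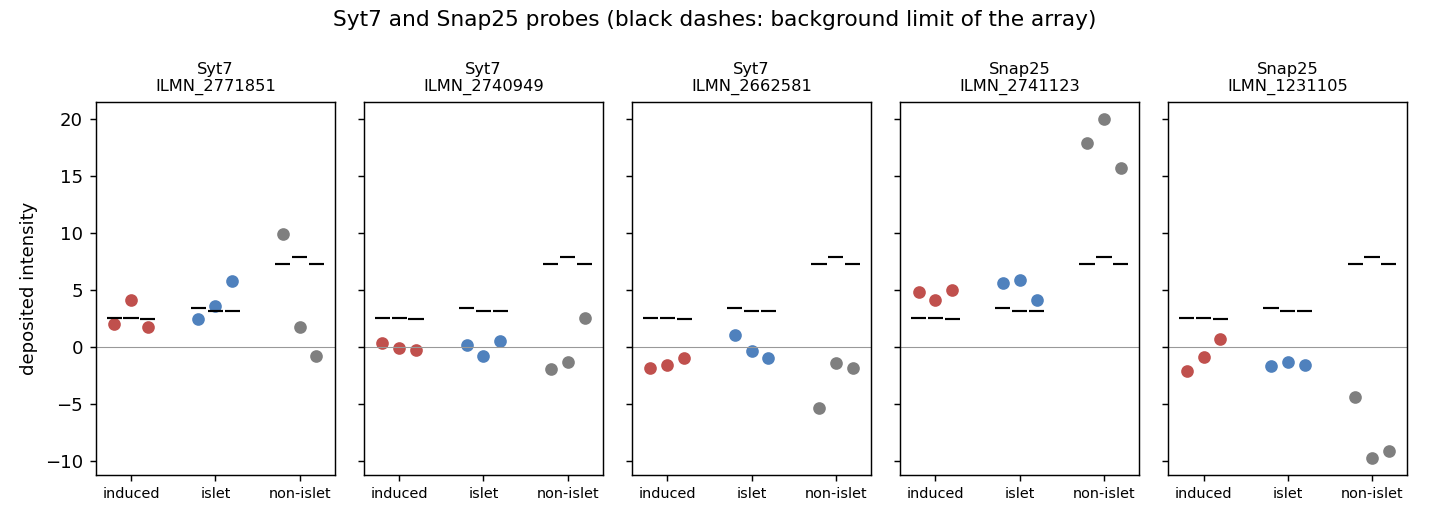
Deposited intensity of the 3 Syt7 probes and the 2 Snap25 probes on each array, with a black dash at the background limit of that array. Points are arrays, and in each panel the 3 groups run from left to right. Only Snap25 probe ILMN_2741123 lies above the limit on all 3 non-islet arrays, at 15.7 to 20.0.

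The SNARE genes did not move together. Stx1a encodes syntaxin 1A, the SNARE of the plasma membrane on which neuronal and endocrine granules dock and fuse. Its signal was 310, 320 and 279 in induced cells, 48.7, 48.9 and 48.0 in islets, and 61.3, 75.2 and 88.5 in non-islet cells. Induced arrays were the highest by a wide margin, and islet and non-islet arrays lay close to each other. Stx1a stood 2.38 above islets on the log2 scale (SE 0.12, 95% interval 2.12 to 2.64, adjusted p = 2.7e-08 by limma). Above non-islet cells it stood by 1.87 (SE 0.12, adjusted p = 6.56e-08 by limma). Both differences kept their direction and call in all 22 alternatives. Between islets and non-islet cells Stx1a had no stable direction: it was -0.51 by the main scaling (adjusted p = 0.00201 by limma), 0.06 with a common median (adjusted p = 0.516), 0.41 as deposited (adjusted p = 0.000766) and 1.29 at equal noise (adjusted p = 6.52e-10).

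Vamp2 encodes synaptobrevin 2, the SNARE on the granule. Its signal was 267, 285 and 283 in induced cells, 223, 220 and 235 in islets, and 35.3, 13.1 and 26.9 in non-islet cells. Induced arrays lay just above islet arrays and both far above non-islet arrays. Between induced cells and islets Vamp2 differed by 0.29 on the log2 scale (95% interval -0.12 to 0.69) and was not called when all 3 groups shared 1 estimate of the spread (adjusted p = 0.23 by limma). The SD of its log2 signal was 0.47 on the non-islet arrays, against 0.05 in each other group. In a fit of the 2 compared groups alone, Vamp2 was called higher (adjusted p = 0.00356 by limma). It was also called at equal noise (0.67), as deposited (0.31), with a common median (0.39), with an offset of 50 (0.25), with array weights, with weights per group (an alternative chosen after seeing the data) and without non-islet replicate 2 (adjusted p = 0.0228 by limma), while other alternatives left it uncalled. Against non-islet cells Vamp2 was higher by 3.02 (induced cells) and 2.73 (islets), both called (adjusted p = 5.26e-08 and 1.28e-07 by limma).

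Snap25 encodes SNAP-25, the partner of syntaxin 1A on the plasma membrane. Its measured probe, ILMN_2741123, was dim in induced cells and in islets. The signal was 5.10, 4.50 and 5.47 in induced cells, 4.64, 5.01 and 3.44 in islets, and 31.6, 36.8 and 22.8 in non-islet cells. Induced and islet arrays overlapped, and non-islet arrays were higher. Between induced cells and islets the log2 difference of Snap25 was 0.06 (95% interval -0.21 to 0.32, adjusted p = 0.733 by limma). Against non-islet cells it was -1.31 for induced cells and -1.37 for islets, both called (adjusted p = 1.56e-06 and 1.18e-06 by limma). At equal noise these shrank to -0.11 and -0.16 and were not called (adjusted p = 0.208 and 0.0662). The other Snap25 probe, ILMN_1231105, was above background on 0 of 9 arrays. How well either probe reads the Snap25 transcript was not tested.

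Rab3a encodes a small GTPase that sits on granules and recruits effectors. Its signal was 21.5, 21.9 and 18.5 in induced cells, 122, 135 and 146 in islets, and 16.7, 24.9 and 18.6 in non-islet cells. Induced and non-islet arrays overlapped, and islet arrays were far above both. Rab3a had a log2 difference of -2.17 between induced cells and islets (SE 0.11, adjusted p = 4.54e-08 by limma) and 2.20 between islets and non-islet cells (adjusted p = 1.59e-08 by limma). Between induced and non-islet cells it was 0.03 (95% interval -0.22 to 0.28, adjusted p = 0.8 by limma). That last comparison was called higher as deposited (0.26, adjusted p = 0.00668) and at equal noise (1.08, adjusted p = 1.04e-08).

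Sytl4 encodes granuphilin, an effector of Rab27a that docks insulin granules at the plasma membrane and binds syntaxin 1A. Its signal was 383, 326 and 334 in induced cells, 685, 810.1 and 936 in islets, and 29.5, 42.1 and 25.7 in non-islet cells. The groups did not overlap, and induced arrays lay between the others. For Sytl4 the log2 difference was -1.19 between induced cells and islets (SE 0.15, adjusted p = 5.83e-05 by limma). It was 3.03 between induced and non-islet cells and 4.22 between islets and non-islet cells (adjusted p = 1.07e-08 and 7.57e-10 by limma).

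Cadps encodes CAPS1, which primes dense-core granules for fusion. Its signal was 178, 173 and 174 in induced cells and 228, 244 and 277 in islets, and it was above background on 0 of 3 non-islet arrays. Induced arrays were close to one another and all below the islet arrays. The log2 difference of Cadps between induced cells and islets was -0.48 (SE 0.095, adjusted p = 0.0014 by limma), and -0.08 at equal noise (adjusted p = 0.509). Cadps was at least 8.89-fold higher in induced cells and at least 12.4-fold higher in islets than the background limit of non-islet cells. As with Syt13, these higher calls followed from the filter, so only bounds are given.

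**Figure D3:**
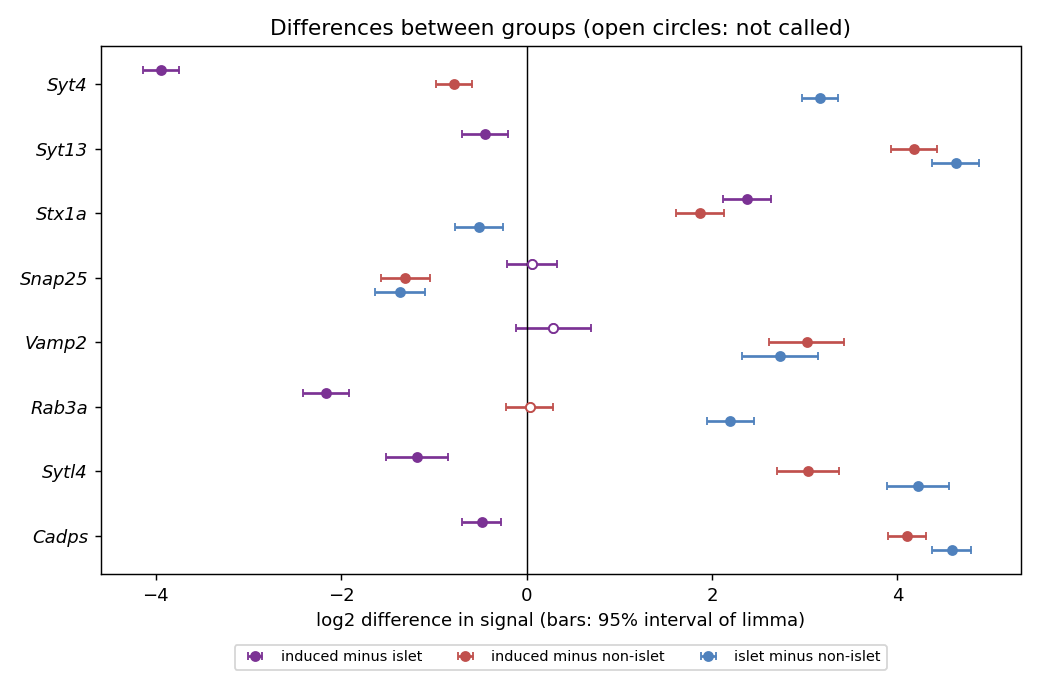
Log2 differences of the tested genes in the 3 comparisons, with 95% intervals from limma and open circles where the difference was not called. For Syt13 and Cadps the differences from non-islet cells depend on the offset, because the non-islet signal is below background. Stx1a is the one gene whose 2 induced differences lie above 0 while its islet difference lies below 0.

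Against non-islet tissue, Vamp2, Sytl4, Syt13 and Cadps were higher in both induced cells and islets, and the other tested members were not. In induced cells 5 of 8 tested probes were higher than in non-islet cells and 2 were lower, where 76.2% of all kept probes were called (39.6% higher, 36.5% lower). In islets 6 were higher and 2 were lower, where 74.7% of all kept probes were called (40.5% higher, 34.1% lower). The median log2 differences were 2.44 and 2.95, beside 0.05 and 0.09 over all kept probes. These comparisons share the non-islet arrays. Syt13 and Cadps passed the filter only through the groups in which they were high, so they had to differ and these counts support nothing further. Of the members detected in all 3 groups, Vamp2 and Sytl4 were higher than in non-islet cells in both groups under each of the 4 scalings of the arrays, as were Stx1a in induced cells and Syt4 and Rab3a in islets. The members that were called lower than in non-islet cells, Syt4 in induced cells, Stx1a in islets and Snap25 in both, lost that call or changed direction at equal noise.

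**Figure D4:**
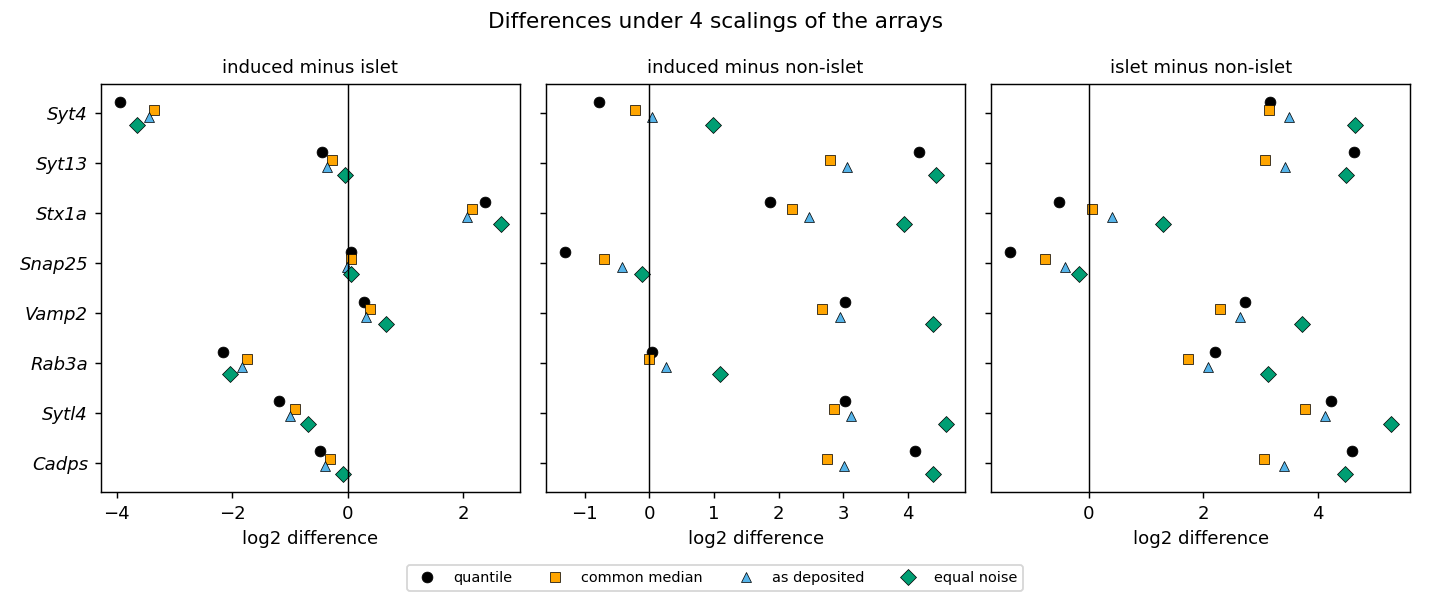
Log2 differences of the tested genes in the 3 comparisons under quantile normalization, a common median, the values as deposited and arrays scaled to equal noise. Between induced cells and islets the 4 symbols stay close together, with Stx1a above 2 and Syt4 below -3 under each. Against non-islet cells the equal-noise values lie furthest to the right for most genes.

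The arrays differed in ways that bear on these comparisons. On the induced, islet and non-islet arrays 13476 to 13689, 13525 to 13763 and 9210 to 9933 probes were above background, and the noise SD was 1.48 to 1.56, 1.88 to 2.05 and 4.40 to 4.82. The median log2 difference of all probes from non-islet cells moved to 0.27 (induced) and 0.35 (islets) as deposited and to 1.03 and 0.94 at equal noise. The number of arrays limits the precision. Beta cell markers summed to a signal of 8330 to 12101 in induced cells, 25402 to 26734 in islets and 121 to 186 in non-islet cells, with 6 of 7 above background on all 3 induced arrays and 7 of 7 on the islet arrays. Acinar markers were above background for 8 of 8 genes on every array of the 3 groups, at 63431 to 68190 in induced cells, 70044 to 70682 in islets and 76853 to 79505 in non-islet cells. These sums are carried by digestive enzyme genes, which were bright in every group.

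Markers of cell types other than beta cells went both ways between induced cells and islets. The beta cell markers were lower in induced cells: Slc30a8 (-2.97 on the log2 scale), G6pc2 (-2.36), Iapp (-2.12), Slc2a2 (-2.09), Nkx6-1 (-0.73) and Ins2 (-0.68). Ucn3 was lower too (-5.95) and was above background on 1 of 3 induced arrays. It was above background on all 3 arrays of the islet group alone, so it was tested only because it was high there. With induced cells this close to background, its difference depends on the offset. The 4 measured markers of alpha, delta and PP cells were above background in both groups and summed to 7329 to 8539 in induced cells and 31544 to 32794 in islets. Gcg, Sst and Ppy were lower in induced cells (-2.27, -0.93 and -5.64 on the log2 scale) and Hhex was higher (0.96). The signal of Ppy, which encodes pancreatic polypeptide, was 221 ± 8.82 on the induced arrays and 11642 ± 192 on the islet arrays (SD, n = 3). Endothelial markers summed to 30.8 to 36.2 in induced cells, with 4 of 7 above background on all 3 arrays and Esm1 on 0 arrays, and to 2107 to 2159 in islets with 6 of 7. Their part in the results was not tested. Neurons use the same machinery. Neuron markers summed to 206 to 221 in induced cells, 181 to 207 in islets and 82.4 to 97.7 in non-islet cells, with Chat and Nefl above background on 0 arrays of any group. Within this list Nefm, a neurofilament gene, was higher in induced cells, as Stx1a was (98.4 ± 15.8 against 12.2 ± 2.12 in islets, log2 difference 2.19, adjusted p = 9.9e-08 by limma). Gap43, a growth cone gene, was lower (-1.29), but it was tested only because it was high in islets, the 1 group that kept it. Elavl4 (-0.65) and Th (-0.62) were lower as well. Elavl3, kept only through the induced arrays, was higher (0.45), and Tubb3 and Uchl1 were not called. Of 5 measured Schwann cell markers 4 were above background on 0 induced arrays, and the list summed to 15.6 to 25.4 in induced cells and 25.9 to 29.3 in islets. Duct markers summed to 1960 to 2168 in induced cells against 1002 to 1128 in islets. Each of the 5 measured was called higher in induced cells: Muc1 (3.62 on the log2 scale), Sox9 (1.88), Cftr (1.21), Krt19 (0.88) and Krt7 (0.44). Of these, Cftr and Krt19 were kept only through the induced arrays. Macrophage and mast cell markers summed to 153 to 155 in induced cells against 72.9 to 74.9 in islets. In the latter list Kit and Cd14 were higher in induced cells (1.29 and 1.68 on the log2 scale), Adgre1 was lower (-1.07, adjusted p = 4.75e-05 by limma), C1qa was not called (0.07), and Cpa3 and Mcpt4 were above background on 0 arrays. Among acinar markers Ptf1a, which encodes an acinar transcription factor, was higher in induced cells than in islets, as Stx1a was (289 ± 21.5 against 44.5 ± 4.12, with 1555 in non-islet cells, log2 difference 2.42, adjusted p = 6.47e-09 by limma). Prss2, a trypsinogen gene, was higher by less (0.31, adjusted p = 0.0324 by limma). Amy2a5, an amylase gene, was lower (-0.34, adjusted p = 0.036 by limma). The acinar markers Cpa1, Cela1, Cela2a, Ctrb1 and Cel were not called. The part of these lists in the Stx1a difference was not tested.

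The wider exocytosis pathway was read from a list of 93 further genes in 8 roles, of which 78 had a probe and 57 a kept one. Between induced cells and islets 13 of the 57 were higher, 23 were lower and 21 were not called, with a median log2 difference of -0.12. Over all 9937 genes 51.2% were called, 24% higher and 27.2% lower, with a median of -0.04. With so few genes per role, the role counts given below are not results about the roles. At equal noise the balance turned, to 22 higher and 19 lower, where 61.1% of the calls over all kept probes were higher. Of the 57, Doc2b rose and Syt9 fell by more than 1 on the log2 scale, and all others lay within that range. So did the members Syt13, Cadps, Vamp2 and Snap25. Doc2b was above background on all 3 arrays of the induced group alone, so that it was tested only because it was high there.

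**Figure D5:**
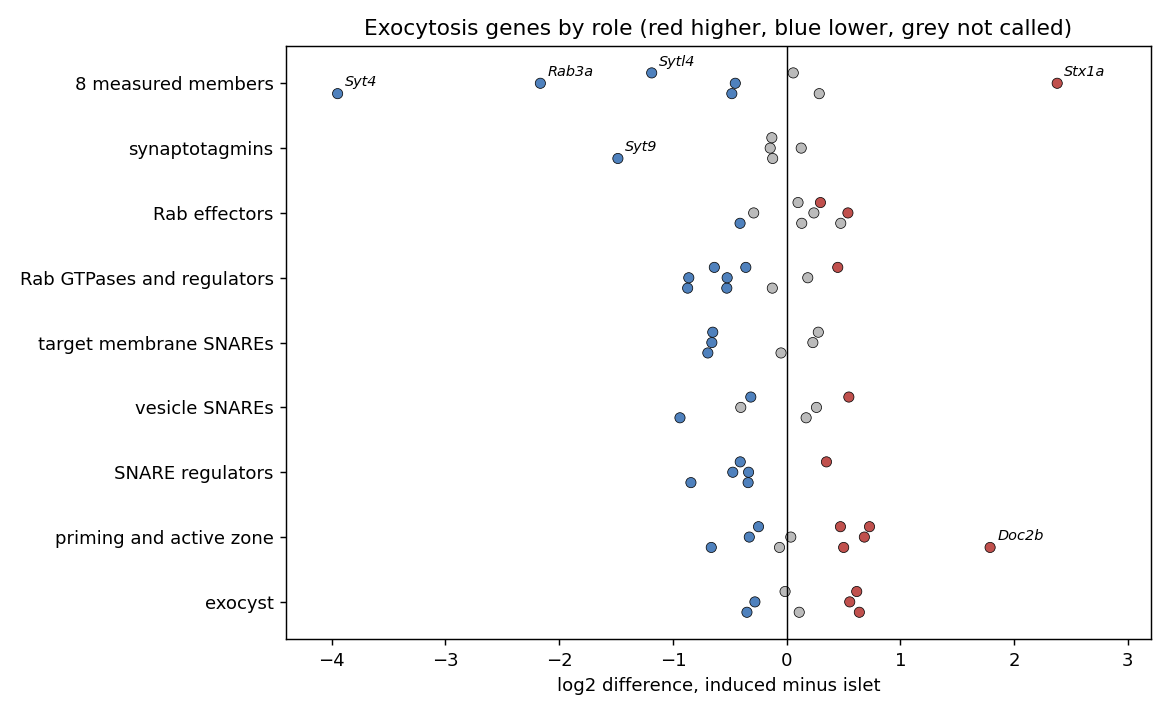
Log2 difference between induced cells and islets for the 8 tested members and the 57 other pathway genes, 1 row per role, in red where higher, blue where lower and grey where not called. Each point is a gene by its brightest kept probe, and genes beyond 1 on the log2 scale are named. Syt4, Rab3a, Sytl4, Syt9, Doc2b and Stx1a are the ones beyond that line.

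Of 5 other synaptotagmins measured, Syt9 was lower in induced cells than in islets and 4 were not called. Over all genes 51.2% were called in this comparison. Syt9, a calcium sensor with a described role in insulin release, read 7.51 ± 0.909 in induced cells against 42.4 ± 1.18 on the islet arrays (SD, n = 3, log2 difference -1.48, adjusted p = 8.41e-06 by limma). Syt5 and Syt16 were at least 4.03-fold and 1.86-fold higher in induced cells than the background limit of non-islet cells, and at least 3.68-fold and 2.05-fold higher in islets. Their differences between induced cells and islets were 0.13 and -0.14 and were not called.

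Over all genes 27.2% were lower in induced cells than in islets and 24% were higher. Of 9 Rab GTPases and regulators, 6 were lower in induced cells than in islets and 1 was higher. That gene, Rab27b, was above background on 1 of 3 islet arrays (0.45, adjusted p = 0.012 by limma). The lower genes included Rab3d, a Rab3 of exocrine and endocrine granules (-0.87, adjusted p = 6.97e-06 by limma), and Rab3gap1, a subunit of the enzyme that switches Rab3 off (-0.86, adjusted p = 2.72e-05). Rab27a, the partner of granuphilin, was not called between induced cells and islets (-0.13, adjusted p = 0.4 by limma). Its signal was 539 ± 40.0 in induced cells, 591 ± 69.0 in islets and 149 ± 14.3 in non-islet cells. Of 8 Rab effectors 2 were higher (Mlph at 0.54 and Myrip at 0.30), 1 was lower (Sytl1 at -0.41) and 5 were not called. The calls of Myrip and Sytl1 were each lost under 1 of the 3 other scalings.

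Of 6 other target membrane SNAREs 3 were lower in induced cells and 0 higher, where 27.2% of all genes were lower and 24% higher. Snap47 (-0.69), Stx2 (-0.66) and Snap23 (-0.65, adjusted p = 0.0195 by limma) were the lower ones, and the last was named after its value was seen. Of 6 other vesicle SNAREs Vamp4, of the trans-Golgi network and immature granules, was lower (-0.94, adjusted p = 0.000471 by limma), as was Vamp5 (-0.32), a dim probe above background on 1 of 3 induced arrays. Vamp5 was above background on all 3 arrays of the islet group alone, so it was tested only because it was high there. Its call was lost with a common median (-0.11, adjusted p = 0.165 by limma). Vamp8, the SNARE of acinar zymogen granules, was higher by its brightest probe (0.55, adjusted p = 0.0323 by limma) but not by its other kept probe (0.20, adjusted p = 0.443). All but 1 of 6 SNARE regulators were lower, where 27.2% of all genes were lower. Cplx1 among them was above background on the islet arrays alone, so it was tested only because it was high there. The lower regulators included Napa (-0.84, adjusted p = 3.33e-05 by limma), the gene of alpha-SNAP, which has a part in the disassembly of used SNARE complexes. Cplx2, a complexin that clamps and supports fusion, was lower as well (-0.47, adjusted p = 0.00666 by limma). Stxbp2, which encodes Munc18-2, was higher (0.35, adjusted p = 0.0216 by limma).

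Of 10 priming and active zone genes 5 were higher and 3 lower, where 24% of all genes were higher and 27.2% lower. Doc2b, a calcium-binding protein that promotes SNARE assembly, read 37.9 ± 3.12 in induced cells but 2.48 ± 0.989 in islets, where it was above background on 2 of 3 arrays (1.79, adjusted p = 4.25e-08 by limma). With islets this close to background, that difference depends on the offset. Its other kept probe was higher too (1.13, adjusted p = 2.68e-05 by limma). Unc13a, which encodes the priming factor Munc13-1, was higher by 0.73 (adjusted p = 0.000808 by limma), and Erc2, an active zone scaffold gene, was lower at -0.66 (adjusted p = 0.00874). Doc2a, a relative of Doc2b, was lower by less (-0.33, adjusted p = 0.0191 by limma). Of 7 exocyst subunits, which tether vesicles, 3 were higher and 2 lower, with Exoc7 and Exoc6b the highest (0.64 and 0.62, adjusted p = 0.00947 and 0.000204 by limma). Exoc8 (-0.35) and Exoc3 (-0.28) were lower, and like Doc2a they were not called at equal noise.

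Against non-islet cells the same 57 genes were split, with 22 higher and 18 lower in induced cells and 25 higher and 19 lower in islets. Over all genes 77.4% were called in induced cells (40.7% higher, 36.8% lower) and 76.2% in islets (41.4% and 34.8%). At equal noise the 57 genes became 48 higher and 0 lower in induced cells and 47 and 1 in islets. At that scaling 95.1% and 94.4% of the calls over all kept probes were higher, so these counts follow the array. Some lower calls held with a common median and as deposited but were lost or turned at equal noise. Among these were Rab3d (-1.94 and -1.07 in induced cells and islets), Myrip (-1.61 and -1.91), Rims3 (-1.20 and -0.96) and Syt15 (-1.23 and -1.11). Rab27b in islets (-1.31) kept its lower call under each scaling. The higher calls that follow held under each scaling. Pclo, the gene of the active zone scaffold piccolo, read 889 ± 72.6 in induced cells, 549 ± 42.6 in islets and 48.5 ± 3.69 in non-islet cells (3.90 and 3.21 above non-islet cells), though its other kept probe was not called in either comparison (-0.05 and -0.22). Vamp4 was higher by 2.08 and 3.02, and Rab27a by 1.77 and 1.90. Vamp3, a SNARE of recycling endosomes, was higher by 0.96 and 0.79, and the exocyst subunit Exoc6b by 1.60 and 0.98. Rims2, which encodes a Rab3 effector at release sites, and Cplx2 were above background on 0 non-islet arrays, as were Syt5 and Syt16, so that their higher calls followed from the filter and are given as bounds only. Rims2 was at least 3.55-fold (induced cells) and 2.56-fold (islets) above the non-islet background limit, and Cplx2 at least 2.19-fold and 3.04-fold.

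Finally, the genes whose log2 signal followed each member most closely over the 9 arrays were read out from 9929 others, 2 for each member. The 9 points fall into 3 groups, so that r mostly reflects the order and spacing of the groups, and no p is given. Stx1a was nearest to Tmem82 and Inppl1 (Pearson r = 0.997 and 0.996), and Syt4 to Esam and Rnf182 (0.996 and 0.993). Rab3a was nearest to Emilin1 and Enpp6 (0.999 and 0.998), which were lower in induced cells than in islets by log2 differences of -3.92 and -1.51. Cadps was nearest to Zbtb20 and to Sst, the somatostatin gene (0.999 for both), and Syt13 to Serpina7 and Plekha6 (0.999 for both). Sytl4 was nearest to Golm2 and Ttc39b, Vamp2 to Tpst1 and Wdr20, and Snap25 to Adcy7 and Wdpcp, with r of 0.997 to 0.998. How crowded these patterns were differed between members: 154 genes had r over 0.99 with Cadps and 133 with Syt13, against 17 with Syt4, 22 with Rab3a and 24 with Stx1a.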

How the data were processed

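Gene expression was measured on 9 arrays, 3 in each of the groups induced, islet and non-islet. The intensity values were deposited by the authors after processing in BeadStudio, per the submitters' processing notes; the version and settings are not given in the sources used here. From the values, they are linear, background-subtracted (24.7% to 35% below 0 per array) and scaled to a mean of 74.2 on every array. A further table with 36 columns named by slide position, which no label ties to a sample, was not used.

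The intensities were quantile-normalized, and log2 values were formed after adding an offset of 11.9, which makes the lowest value 1. The noise SD of an array came from its values below 0 mirrored at 0, and a probe beyond 1.645 noise SD counted as above background. Probes above background on all 3 arrays of a group were kept (13927). Of the probes 20984 had 1 gene symbol, 1 several and 3628 none in the platform annotation. The fit used limma 3.58.1 (lmFit, eBayes) in R 4.3.3 with 1 mean per group and 6 residual degrees of freedom, two-sided. A gene of the wider pathway is given by its brightest kept probe.

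The members, lists and rules were chosen with earlier results of these data known. The members are named with every probe; of the pathway genes, a role's up to 2 higher and 2 lower calls with the largest differences were eligible, and others where stated; neighbours are the 2 highest Pearson r. The procedure was tested on simulated data. The spread was larger on the non-islet arrays (median SD of log2 signal 0.191, against 0.0838 and 0.0907 in induced cells and islets), so weights per group were added as an alternative. Alternatives were other offsets, scalings, filters and variance models, the 2 compared groups alone, a replicate block, at least 2-fold, and each array left out.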

Additional observations from a re-analysis of the deposited data

How the results depend on the processing

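The number of exocytosis probes called stayed within 1.5 times its main value under every alternative run: 4 to 7 between induced cells and islets (main 6), 5 to 7 between induced and non-islet cells (main 7), and 6 to 8 between islets and non-islet cells (main 8). Leaving out 1 array at a time gave 6 to 7, 7 to 7 and 8 to 8. Of the 24 differences of single probes, 16 stayed on the same side of the threshold, with no called difference changing direction, in each alternative that tested them. Of called differences, those that reversed were Syt4 between induced and non-islet cells (0.044 as deposited, 0.99 at equal noise) and of Stx1a between islets and non-islet cells (0.057, 0.41 and 1.29 with a common median, as deposited and at equal noise). Uncalled differences near 0 also changed sign: Snap25 between induced cells and islets (0.058, and -0.021 as deposited) and Rab3a between induced and non-islet cells (0.033, and -0.011 with a common median). The cause was not tested. Over the whole array, asking for at least 2-fold left 1785, 4834 and 4534 calls, and asking for signal above background on all 9 arrays left 4008, 6129 and 6028 of 7601 probes, against 6772, 10607 and 10402 in the main analysis; fewer probes were tested in the latter. Equal noise raised the share of calls that were higher from 46.3% to 61.1% between induced cells and islets, from 52% to 95.1% between induced and non-islet cells and from 54.3% to 94.4% between islets and non-islet cells, and the deposited values gave 39.9%, 71.6% and 77.1%. The replicate numbers did not pair the samples (correlation of deviations -0.12 to 0.19 for the same number, -0.22 to 0.21 for other numbers), and a replicate block left 6, 7 and 8 calls of exocytosis probes and changed no call among them. Syt7 and the second Snap25 probe were too close to background for any statement.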
